A study of Mus musculus with 30 samples.

Results

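Vitamin D activation and the renal handling of phosphate were followed through 10 genes, *Cyp27b1*, *Cyp24a1*, *Vdr*, *Slc34a1*, *Slc34a3*, *Slc20a2*, *Kl*, *Fgfr1*, *Pth1r* and *Calb1*. The symbols were picked as the members of one endocrine pathway, selected on their known roles while earlier results of these data were known, and were then matched to the gene names of the count tables. No level or fold change served as a threshold, but the count filter decided which of them could be tested in muscle. All 10 were found among the 54838 genes of the kidney table and all 10 were among its 17120 tested genes. In gastrocnemius all 10 were found among 55487 genes, and 4 of them, *Slc20a2*, *Kl*, *Fgfr1* and *Pth1r*, were among the 15419 tested genes. Because the pathway was picked with results in view, the adjusted p-values below place each gene among all tested genes and are no independent support for the choice.

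The study asked whether cyclo(His-Pro), a cyclic dipeptide abbreviated CHP, protects mice from steatohepatitis caused by diet. Wild-type male C57BL/6J mice lived at thermoneutrality, 30 to 32 °C, from week 6. From week 7 they received either a chow diet with water by gavage (CD), a Western diet rich in fat and sucrose with water by gavage (WD), or the Western diet with 20 mg/kg CHP by gavage 3 times a week (WD + CHP). Tissues were taken at week 24, 3 h into a fast. PolyA-enriched RNA was sequenced from kidney and gastrocnemius, a calf muscle, with 5 libraries per group and tissue and 30 in all. Warm housing and handling were thus shared by every group, and no group received CHP on the chow diet. The labels do not tie a kidney and a muscle library to one mouse, and p-values measure the spread between the 5 libraries of a group.

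The kidney makes the hormonal form of vitamin D in the proximal tubule, where CYP27B1 adds the activating hydroxyl group and CYP24A1 starts the breakdown of the hormone and its precursor. The hormone acts through the vitamin D receptor VDR, which typically raises *Cyp24a1* and lowers *Cyp27b1* in kidney, while parathyroid hormone raises *Cyp27b1*. FGF23, a bone hormone read by FGFR1 together with Klotho, lowers *Cyp27b1* and withdraws phosphate transporters from the tubule, and parathyroid hormone acts on the same transporters through PTH1R.

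Kidney libraries held 37189192 to 38211422 counts. The share on mitochondrial genes was 17.8% to 19.6% in CD, 18.7% to 20.9% in WD and 18.9% to 21.1% in WD + CHP. Gastrocnemius libraries held 50319024 to 53282969 counts, 7.74% to 11.5% of them mitochondrial. Levels are given as counts per 1000000 (CPM) on library sizes scaled by the TMM method of edgeR, and a change was called at an adjusted p under 0.05. The tissue names fitted their markers. The sodium chloride cotransporter gene *Slc12a3* ranged from 1249 to 1714 CPM over the kidney libraries and from 0 to 0.0763 CPM over the muscle libraries. The organic anion transporter gene *Slc22a6* ranged from 986 to 1444 CPM in kidney and had 0 counts in muscle. The fast myosin gene *Myh4* ranged from 68089 to 113259 CPM in muscle and had 0 counts in kidney. In whole tissue, fewer cells of a type and less RNA per cell cannot be told apart.

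The promoters of the activating enzyme and of the receptor are shown because these genes had the largest fold change and the smallest p-value of the 10 in WD vs. CD, and that of *Slc34a1* because it held the closest match to a receptor site. Sequences are from RefSeq on build GRCm38.p6 and run 5′ to 3′ from 250 bases before to 50 bases after a RefSeq transcript start, on the strand of the gene. For *Vdr* and *Slc34a1* that start lies inside the longer GENCODE gene span. Capitals mark the best match on either strand to the DR3-type vitamin D response element. That element is a pair of 6-letter half-sites with 3 free letters between them, each half-site reading A or G, G, G or T, T, C or G, A, so that 12 letters were compared. *Cyp27b1* is at chr10:127047996-127048295 on the plus strand, *Vdr* at chr15:97908247-97908546 on the minus strand and *Slc34a1* at chr13:55399398-55399697 on the plus strand.
Cyp27b1: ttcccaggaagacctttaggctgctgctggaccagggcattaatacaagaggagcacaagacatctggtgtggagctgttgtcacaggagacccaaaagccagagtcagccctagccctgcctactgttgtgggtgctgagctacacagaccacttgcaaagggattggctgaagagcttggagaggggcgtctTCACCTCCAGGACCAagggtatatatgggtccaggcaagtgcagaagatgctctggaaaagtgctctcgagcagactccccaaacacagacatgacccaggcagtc
Vdr: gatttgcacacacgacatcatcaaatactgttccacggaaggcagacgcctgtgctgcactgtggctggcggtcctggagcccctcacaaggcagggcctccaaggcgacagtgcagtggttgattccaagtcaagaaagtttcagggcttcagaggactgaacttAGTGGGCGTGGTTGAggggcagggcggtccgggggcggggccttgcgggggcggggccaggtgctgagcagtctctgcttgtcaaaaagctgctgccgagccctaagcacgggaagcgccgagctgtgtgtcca
Slc34a1: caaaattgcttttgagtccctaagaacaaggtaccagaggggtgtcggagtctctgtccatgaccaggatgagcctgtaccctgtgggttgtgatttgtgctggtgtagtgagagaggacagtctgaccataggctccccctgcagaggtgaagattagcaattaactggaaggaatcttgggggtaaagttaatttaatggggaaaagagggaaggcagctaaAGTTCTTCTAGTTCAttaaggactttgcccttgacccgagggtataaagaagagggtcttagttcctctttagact
The best match had 2 mismatches in *Cyp27b1*, on the opposite strand and 56 bases before the start, and 2 mismatches in *Vdr*, 84 bases before the start. The best match in *Slc34a1* had 1 mismatch and began 26 bases before the start. Of all 32851 promoters of this length, 0.256% held the element with no mismatch, 5.98% with at most 1 and 48.3% with at most 2. A match of the kind seen in *Cyp27b1* and *Vdr* was therefore in nearly as many promoters as not, and distant enhancers were not searched. Promoters were also matched for *Slc34a3*, *Kl* and *Pth1r*, so that 6 of the 10 genes had one.

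In kidney, WD was accompanied by a higher transcript level of the activating enzyme and a lower transcript level of the receptor of the hormone. Of the 10 genes, 5 were called in WD vs. CD, beside 9.65% of all tested genes. *Cyp27b1*, *Pth1r* and *Calb1* rose, beside 4.62% of all genes called upward, and *Vdr* and *Fgfr1* fell, beside 5.03% called downward. The median log2 fold change was 0.11 over the 10 genes and 0.00146 over all tested genes.

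**Figure D1:**
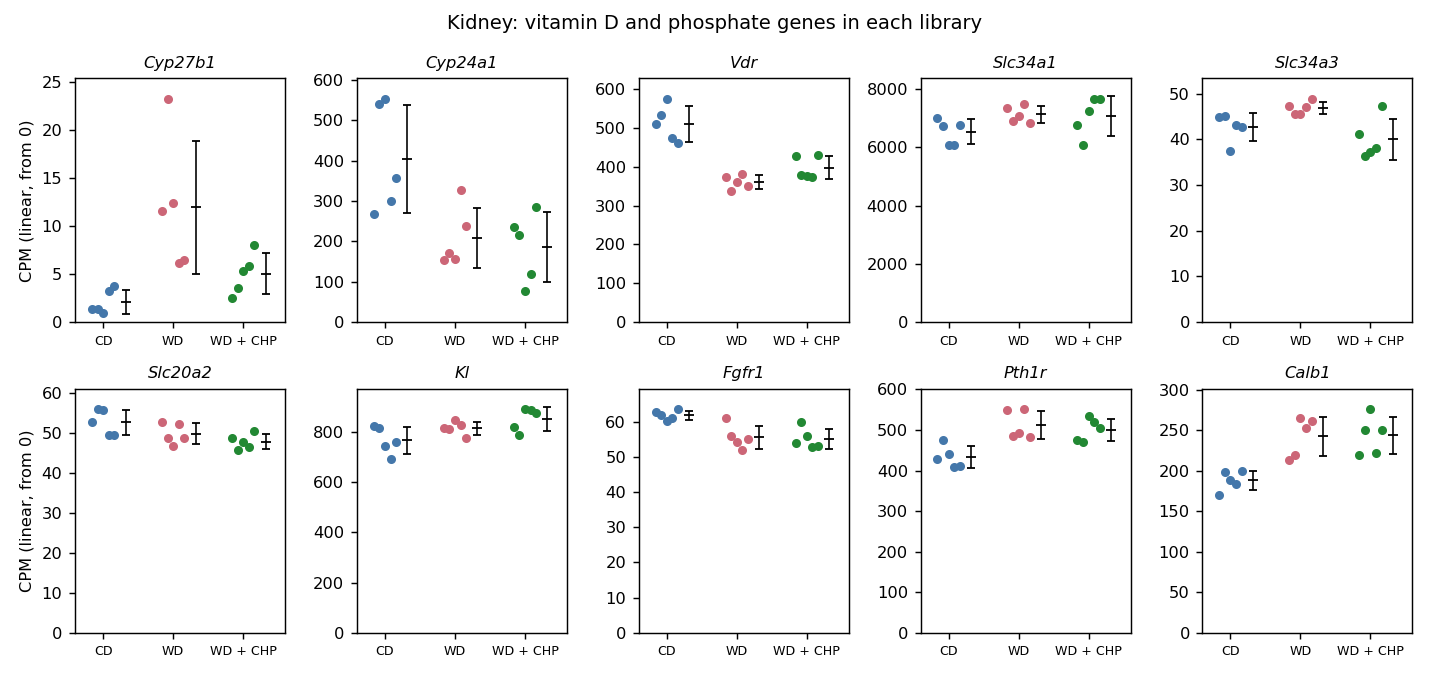
Level of each of the 10 genes in the 15 kidney libraries, in CPM on linear axes that start at 0. Dots are libraries in replicate order, and bars are the mean and SD of 5. *Cyp27b1* lies between 6.20 and 23.3 CPM in WD, above every CD library, and *Vdr* lies between 337 and 380.4 CPM in WD, below every CD library.

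*Cyp27b1*, which encodes the 1-alpha-hydroxylase that makes the active hormone, is at 127048250 to 127053006 on chromosome 10 of GRCm38. Its kidney libraries held 1.34, 1.32, 0.994, 3.20 and 3.79 CPM in CD, 11.6, 23.3, 12.4, 6.20 and 6.43 CPM in WD, and 2.56, 3.56, 5.31, 5.88 and 8.01 CPM in WD + CHP. The raw counts behind these values ran from 38 to 149 in CD, 235 to 879 in WD and 98 to 296 in WD + CHP. Every WD library was above every CD library, while the WD + CHP libraries overlapped both other groups. The level rose 5.61-fold in WD vs. CD (log2 fold change 2.49, SE 0.42, edgeR adjusted p = 0.00186), and it ranked 171 of 17120 genes by p. The fitted ratio of WD + CHP to WD was 0.422 (log2 fold change -1.24, SE 0.39, edgeR adjusted p = 0.216), which did not pass the threshold. WD + CHP vs. CD gave a log2 fold change of 1.24 (SE 0.44, adjusted p = 0.0732), and it passed without WD + CHP replicate 1 (adjusted p = 0.0451) and with no count filter (adjusted p = 0.0497). Spread within groups was wide, with SDs of 59.8%, 57.9% and 41.8% of the mean in CD, WD and WD + CHP.

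Leukocytes can also make CYP27B1, so their markers were set beside these values. None of 8 leukocyte markers was called in WD vs. CD in kidney, and 3 of the 8 had an unadjusted p under 0.05, beside 4263 of all 17120 tested genes. Their fold changes were above 0 for 6 of the 8, with a median log2 fold change of 0.15 and a highest value of 0.88. Their summed level ranged from 95.8 to 112 CPM in CD, 85.2 to 112 CPM in WD and 76.7 to 110.1 CPM in WD + CHP, and no marker was at 0. Of 6 tubular injury markers, 0 were called in WD vs. CD, but all 6 had values above 0 (median log2 fold change 0.31) and 4 an unadjusted p under 0.05, beside the same count over all genes. The sum of the 6 ranged from 78.6 to 95.8 CPM in CD, 95.4 to 112.7 CPM in WD and 88.9 to 102 CPM in WD + CHP. In WD + CHP vs. CD all 6 were again above 0 and 1, *Vcam1*, rose. None of the 6 was at 0.

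Other cell types of the kidney were read in the same way. Of 8 adipocyte markers, 6 were tested in kidney, of which *Cfd* fell in WD vs. CD (1.89 ± 1.40 CPM in CD and 0.335 ± 0.352 CPM in WD, SD, n = 5, edgeR adjusted p = 0.0311) and 5 had values below 0 (median log2 fold change -0.56). Their summed level ranged from 2914 to 3445 CPM in CD, 3616 to 3913 CPM in WD and 2875 to 4317 CPM in WD + CHP. Nearly all of that sum was *Pck1*, a gene of gluconeogenesis that the proximal tubule also expresses, with 3074 ± 258 CPM in CD and 3718 ± 120 CPM in WD (adjusted p = 0.0649). Of 6 markers of the thick ascending limb, *Ptger3* rose in WD vs. CD, beside 9.65% of all tested genes called. Over the 6, 2 values were above 0 and 4 below (median log2 fold change -0.05). Their sum ranged from 2767 to 3471 CPM in CD, 2588 to 3164 CPM in WD and 2681 to 3060 CPM in WD + CHP. In WD vs. CD edgeR called 0 of 5 intercalated cell and 0 of 7 endothelial markers. Of them 3 and 0 had an unadjusted p under 0.05. In WD + CHP vs. CD the intercalated cell marker *Slc4a1* and the endothelial marker *Pecam1* fell, beside 12.1% of all genes called. There 5 of 5 and 6 of 7 values were below 0. The part of leukocytes, tubular injury and these cell types in the kidney changes of the 10 genes was not tested.

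*Cyp24a1* encodes the 24-hydroxylase that inactivates the hormone and is at 170482708 to 170497145 on chromosome 2, on the minus strand. It held 268, 539.8, 553, 300.5 and 356 CPM in CD, 153, 172, 156, 327 and 239 CPM in WD, and 235, 216, 76.1, 119 and 284 CPM in WD + CHP. In WD and in WD + CHP 4 of 5 libraries were below every CD library, and the fifth, replicate 4 of WD and replicate 5 of WD + CHP, lay among the CD libraries. The fitted level in WD was 0.519 of that in CD (log2 fold change -0.95, SE 0.32, edgeR adjusted p = 0.067), which missed the threshold. It passed without WD replicate 4 (-1.16, adjusted p = 0.0398), with no count filter (adjusted p = 0.04) and with only both groups in the fit (adjusted p = 0.0304).

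In WD + CHP the level of *Cyp24a1* was 0.461 of that in CD (log2 fold change -1.12, SE 0.32, edgeR adjusted p = 0.0306), a fall that passed. The call was lost in 5 of 10 refits lacking 1 library, namely CD replicates 2, 3 and 5 and WD + CHP replicates 3 and 4, with adjusted p-values between 0.0526 and 0.0842. WD + CHP vs. WD gave -0.17 (SE 0.31, adjusted p = 0.888). *Cyp24a1* shares 83 exon bases with *Pfdn4* on the other strand, which held 172 to 266 counts in kidney against at least 2735 for *Cyp24a1*.

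The inactivating enzyme was the more abundant of the pair in every kidney library. To compare levels of different genes, counts were divided by exon length and scaled to 1000000 per library, which gives TPM-like units. On that scale *Cyp24a1* exceeded *Cyp27b1* 145, 295, 402, 67.9 and 67.9 times in CD, 9.54, 5.33, 9.10, 38.1 and 26.8 times in WD, and 66.4, 43.9, 10.4, 14.6 and 25.7 times in WD + CHP. The 5 WD ratios were below all 5 CD ratios, and the highest WD + CHP ratio, 66.4, was just under the lowest CD ratio, 67.9. The mean log2 of *Cyp27b1* over *Cyp24a1* was -7.24 ± 1.18 for CD, -3.77 ± 1.18 for WD and -4.69 ± 1.10 for WD + CHP (SD, n = 5). WD and WD + CHP ratios overlapped across most of their range. These ratios combine genes that were already chosen, so they were not tested.

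**Figure D2:**
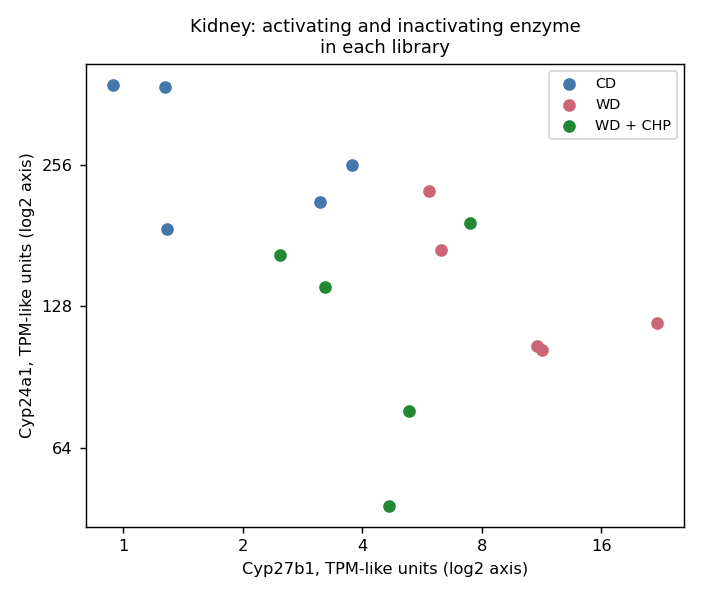
*Cyp27b1* on the horizontal axis and *Cyp24a1* on the vertical axis in each of the 15 kidney libraries, both in TPM-like units on log2 axes, coloured by group. CD libraries lie at the upper left and WD libraries to the right. WD + CHP libraries lie between them on the horizontal axis, overlapping both groups. On the vertical axis they overlap WD and reach lower.

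*Vdr*, the nuclear receptor for the hormone, is at 97854425 to 97910630 on chromosome 15, on the minus strand. It held 509, 533, 575, 473 and 462 CPM in CD, 375, 337, 361, 380.4 and 352 CPM in WD, and 428, 379.85, 376, 372 and 431 CPM in WD + CHP. All CD libraries were above all libraries of both other groups, and WD + CHP overlapped WD. *Vdr* fell to 0.707 of its CD level in WD (log2 fold change -0.50, SE 0.06, edgeR adjusted p = 0.00019) and ranked 33 of 17120 by p. WD + CHP vs. CD gave -0.36 (SE 0.06, adjusted p = 0.00201), a fall that passed. Both calls held in all 10 refits lacking 1 library and under each of 10 other settings. WD + CHP vs. WD gave 0.14 (SE 0.06, adjusted p = 0.41), with an unadjusted p of 0.0391.

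Markers of the proximal tubule, where much of this pathway is found, moved in both directions. Of 12 proximal tubule markers, 3 rose in WD vs. CD, *Slc13a3*, *Slc5a2* and *Miox*, and 1 fell, *Slc27a2*, beside 9.65% of all tested genes called. Over the 12 the median log2 fold change was 0.09. Their summed level ranged from 15092 to 16397 CPM in CD, 15458 to 16575 CPM in WD and 16051 to 18119.9 CPM in WD + CHP. Of 6 markers of its straight part, *Slc5a10* rose and *Slc22a7* and *Cyp7b1* fell, beside the same share. The sum of the 6 ranged from 1679 to 2054 CPM in CD, 1414 to 1613 CPM in WD and 1369 to 1852 CPM in WD + CHP. None of these markers was at 0, and their part in the changes of *Vdr*, *Cyp24a1* and *Pth1r* was not tested.

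The 3 phosphate transporter genes gave no call between any groups of kidney libraries. *Slc34a1*, which encodes the main sodium phosphate cotransporter of the brush border, held 6997, 6747, 6094, 6079.8 and 6753 CPM in CD, 7362, 6912, 7090.0, 7481 and 6817 CPM in WD, and 6758, 6064, 7258, 7646 and 7667 CPM in WD + CHP. Its groups overlapped throughout. WD vs. CD gave a log2 fold change of 0.13 (SE 0.06, adjusted p = 0.233), WD + CHP vs. WD gave -0.01 (SE 0.06, adjusted p = 0.973) and WD + CHP vs. CD gave 0.12 (SE 0.06, adjusted p = 0.262). *Slc34a1* shares 545 exon bases with *Pfn3* on the other strand, which had 0 counts in kidney.

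*Slc34a3*, the related cotransporter of the same membrane, held 44.9, 45.0, 37.5, 43.1 and 42.8 CPM in CD, 47.2, 45.6, 45.5, 47.0 and 48.9 CPM in WD, and 41.1, 36.4, 37.1, 38.0 and 47.3 CPM in WD + CHP. The WD libraries were all above the CD libraries, although narrowly, and the difference was not called (log2 fold change 0.13, SE 0.07, edgeR adjusted p = 0.219). In WD + CHP 4 of 5 libraries were below every WD library, and replicate 5 lay among them. That comparison gave -0.23 (SE 0.07, adjusted p = 0.177), and without WD + CHP replicate 5 it passed (-0.29, adjusted p = 0.0341). WD + CHP vs. CD gave -0.09 (SE 0.07, adjusted p = 0.389).

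*Slc20a2*, which encodes the widespread phosphate carrier PiT-2, ranged from 49.5 to 56.0 CPM in CD, 46.9 to 52.9 CPM in WD and 45.8 to 50.6 CPM in WD + CHP. The ranges overlapped, and the log2 fold changes were -0.08 (SE 0.05, adjusted p = 0.32) in WD vs. CD, -0.06 (SE 0.05, adjusted p = 0.681) in WD + CHP vs. WD and -0.14 (SE 0.05, adjusted p = 0.0667) in WD + CHP vs. CD. The last value passed when library size was the plain total count (-0.19, adjusted p = 0.0182). *Slc20a2* shares 95 exon bases with *Smim19*, which held 586 to 823 counts in kidney against 1673 to 2159 for *Slc20a2*.

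Of the receptors that carry the FGF23 and parathyroid hormone signals, one rose, one fell by a small amount and one was not called. *Pth1r*, the parathyroid hormone receptor of bone and kidney, held 429, 474, 441, 408 and 411 CPM in CD, 548, 485, 492, 551 and 483 CPM in WD, and 475, 470.4, 534, 518 and 504 CPM in WD + CHP. All WD libraries were above all CD libraries, and WD + CHP overlapped CD at a single library, replicate 2 of each. It rose 1.18-fold in WD vs. CD (log2 fold change 0.24, SE 0.05, edgeR adjusted p = 0.0099) and 1.16-fold in WD + CHP vs. CD (0.21, SE 0.05, adjusted p = 0.0201). The second call was lost without WD + CHP replicate 3 (adjusted p = 0.0544) or 4 (adjusted p = 0.0514). WD + CHP vs. WD gave -0.03 (SE 0.05, adjusted p = 0.871).

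*Kl* encodes Klotho, the co-receptor that lets FGFR1 bind FGF23. It ranged from 691 to 823 CPM in CD, 775 to 845 CPM in WD and 785 to 888 CPM in WD + CHP, with overlap between all groups. WD vs. CD gave a log2 fold change of 0.09 (SE 0.05, adjusted p = 0.296), WD + CHP vs. WD gave 0.06 (SE 0.05, adjusted p = 0.685) and WD + CHP vs. CD gave 0.15 (SE 0.05, adjusted p = 0.0608). The last of these passed in 4 of 10 refits lacking 1 library, that is CD replicate 1 or 2 or WD + CHP replicate 1 or 2 (adjusted p between 0.0326 and 0.0469), and in DESeq2 (adjusted p = 0.0267).

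*Fgfr1*, the receptor tyrosine kinase of the pair, held 62.8, 61.9, 60.3, 61.2 and 63.5 CPM in CD, 61.0, 55.9, 54.4, 52.1 and 55.0 CPM in WD, and 54.0, 59.9, 55.9, 53.0 and 53.1 CPM in WD + CHP. WD replicate 1 lay among the CD libraries, and the WD + CHP libraries were all below them. The falls were small, to 0.899 of CD in WD (log2 fold change -0.15, SE 0.04, edgeR adjusted p = 0.0373) and to 0.891 in WD + CHP (-0.17, SE 0.04, adjusted p = 0.0229). The WD call rested on the full set of libraries, since it was lost on leaving out any 1 library except WD replicate 1, with adjusted p-values up to 0.102, and with no count filter (adjusted p = 0.0829). The WD + CHP call was lost without CD replicate 1 or 5 or WD + CHP replicate 1, 4 or 5, with adjusted p-values up to 0.0693, and with a correction for length and GC content (adjusted p = 0.0532, or 0.0614 with a replicate block as well). WD + CHP vs. WD gave -0.01 (SE 0.04, adjusted p = 0.951).

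*Calb1* encodes calbindin-D28k, the calcium buffer of the distal tubule that vitamin D is known to support. Its libraries held 169.7, 198, 189, 184 and 199 CPM in CD, 213, 219, 265, 253 and 261 CPM in WD, and 219.9, 250.3, 276, 222 and 250.4 CPM in WD + CHP. Every WD and WD + CHP library was above every CD library. *Calb1* rose 1.29-fold in WD vs. CD (log2 fold change 0.37, SE 0.07, edgeR adjusted p = 0.00537) and 1.30-fold in WD + CHP vs. CD (0.37, SE 0.07, adjusted p = 0.00448). Both calls held in all refits lacking 1 library. WD + CHP vs. WD gave 0.01 (SE 0.07, adjusted p = 0.985).

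Markers of the distal convoluted tubule, one of the segments that hold calbindin, moved in the same comparison. Of 6 such markers, *Pvalb*, *Trpm6*, *Slc12a3* and *Wnk4* rose in WD vs. CD and *Sgms2* fell, beside 9.65% of all tested genes called. In WD + CHP vs. CD 3 rose and 0 fell, beside 12.1% of all genes. The summed level ranged from 1509.8 to 1687 CPM in CD, 1808 to 1928 CPM in WD and 1664 to 2033 CPM in WD + CHP, so that every WD library was above every CD library. Most of that sum was *Slc12a3*, whose range over the kidney libraries is given with the tissue markers. Of 9 tested markers of the connecting tubule and collecting duct, *Aqp4* and *Klk1* rose in WD vs. CD, beside 9.65% of all tested genes called. Over the 9, 5 values were above 0 and 4 below (median log2 fold change 0.0041). In WD + CHP vs. CD *Klk1* rose, with 2 values above 0 and 7 below. The sum of this list ranged from 1586 to 1923 CPM in CD, 2158 to 2211 CPM in WD and 1853 to 2267 CPM in WD + CHP. No marker of either list was at 0. Their part in the higher *Calb1* level was not tested.

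**Figure D3:**
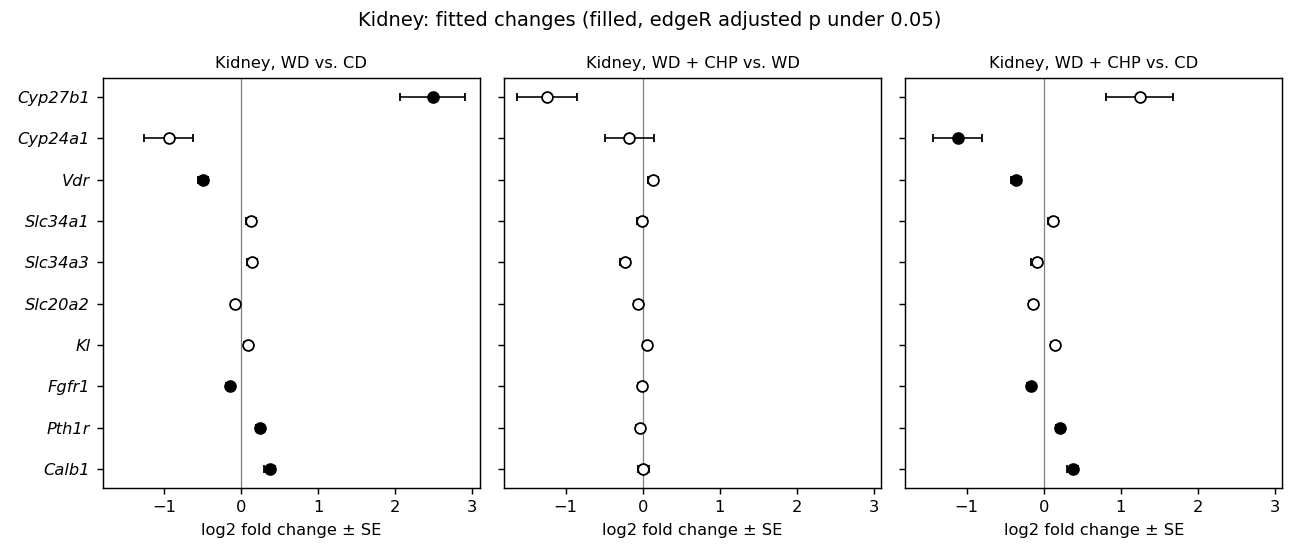
Fitted log2 fold changes with their SE for the 10 genes in the 3 kidney comparisons. Filled points have an edgeR adjusted p under 0.05. There are 5 filled points in WD vs. CD, 0 in WD + CHP vs. WD and 5 in WD + CHP vs. CD.

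CHP on the Western diet gave no call among these genes. Of the 10, 0 were called by edgeR in WD + CHP vs. WD, beside 0.105% of all tested genes, and 3 of the 10 had an unadjusted p under 0.05, namely *Cyp27b1*, *Vdr* and *Slc34a3*. DESeq2 and limma-voom also called 0 of 10, each with 3 at an unadjusted p under 0.05. Over all genes edgeR called 18 of 17120, with 1958 at an unadjusted p under 0.05, and DESeq2 called 194. The median log2 fold change was -0.02 over the 10 genes and -0.01 over all genes.

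WD + CHP vs. CD shares its libraries with both other comparisons and adds no independent evidence to them. It called 5 of 10, beside 12.1% of all tested genes. *Pth1r* and *Calb1* rose, beside 6.25% of genes called upward, and *Cyp24a1*, *Vdr* and *Fgfr1* fell, beside 5.84% called downward. *Cyp27b1* was called in WD vs. CD and not here, and *Cyp24a1* here and not there, but the difference between those effects is the WD + CHP vs. WD comparison, which called neither. Groups did not overlap for 5 of the 10 genes in WD vs. CD and for 3 of 10 in WD + CHP vs. CD, beside 8.7% and 8.34% of all tested genes.

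On the per-length scale in CD kidneys the order of the 10 genes began with *Slc34a1* at 3484 ± 243 TPM-like units (SD, n = 5). *Pth1r* followed at 368 ± 18.8, *Cyp24a1* at 282 ± 89.9, *Vdr* at 225 ± 16.1 and *Kl* at 205 ± 13.8, and in this run each range overlapped the next. *Calb1* at 96.7 ± 6.84, *Slc34a3* at 45.1 ± 3.62, *Slc20a2* at 21.1 ± 0.92, *Fgfr1* at 15.6 ± 0.56 and *Cyp27b1* at 2.08 ± 1.28 came below, each apart from its neighbours. The enzyme that makes the hormone had the lowest level of the 10 transcripts. Variation within CD also differed between genes, with an SD of 2.06% of the mean for *Fgfr1*, 33.3% for *Cyp24a1* and 59.8% for *Cyp27b1* on the CPM scale.

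Within groups some of the 10 genes varied together across the 15 kidney libraries. After each group's mean was taken away, Pearson's r of log2 CPM was 0.83 for *Vdr* with *Slc20a2* and 0.83 for *Slc34a1* with *Kl* (Spearman's rho 0.76 for both), and it was 0.79 and 0.75 without the 2 libraries farthest from the median of the first gene. *Cyp24a1* with *Vdr* gave r = 0.64, *Cyp27b1* with *Vdr* -0.59 and *Cyp27b1* with *Cyp24a1* -0.42 (rho 0.64, -0.70 and -0.40). These are descriptions over 15 libraries that share depth and normalisation, out of 45 pairs, and carry no p.

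The genes whose within-group pattern was most like that of each called gene were sought among 12407 kidney genes with a mean log2 CPM of at least 1. Those most like *Cyp27b1* were *Synpo* (r = 0.89 within groups, 0.79 without centring), *Csf2rb2* (0.87, 0.50) and *Chst1* (0.83, 0.54). Those most like *Cyp24a1* were *D330023K18Rik* (0.92, 0.85), *Cldn8* (0.90, 0.94), a claudin of the distal nephron, and *Azgp1* (0.87, 0.91). *Vdr* was closest to *Htra1* (0.91, 0.54), *Kif24* (0.91, 0.61) and *Pnpla6* (0.91, 0.81). *Synpo* encodes synaptopodin and stood on the podocyte marker list, of which 0 of 6 were called in any kidney comparison, with 2 at an unadjusted p under 0.05 in WD vs. CD, beside 4263 of 17120 genes.

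*Pth1r* was closest to *Slc22a6* (0.92, 0.93), the organic anion transporter of the proximal tubule, *Ifrd2* (0.91, 0.89) and *Dao* (0.91, 0.89). *Fgfr1* was closest to *9330151L19Rik* (0.90, 0.25), *Dancr* (0.84, 0.53) and *Brip1os* (0.81, 0.90). *Calb1* was closest to *Dctn6* (0.90, 0.27), *Rpl37* (0.85, 0.47) and *Rpl32* (0.84, 0.53). These likenesses are descriptions over 15 libraries and carry no p.

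The rest of the pathway was read from 6 lists that together hold 91 genes, of which 83 were tested in kidney. In WD vs. CD 14 of the 83 rose and 3 fell, 20.5% in all beside 9.65% of all tested genes, with a median log2 fold change of 0.04. For WD + CHP vs. WD edgeR called 0 of 83, beside 0.105% of all genes, with 13 at an unadjusted p under 0.05, beside 1958 of 17120. In WD + CHP vs. CD 13 rose and 4 fell, beside 12.1% of all genes called. The lists were written with earlier results known, so these shares were not tested.

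**Figure D4:**
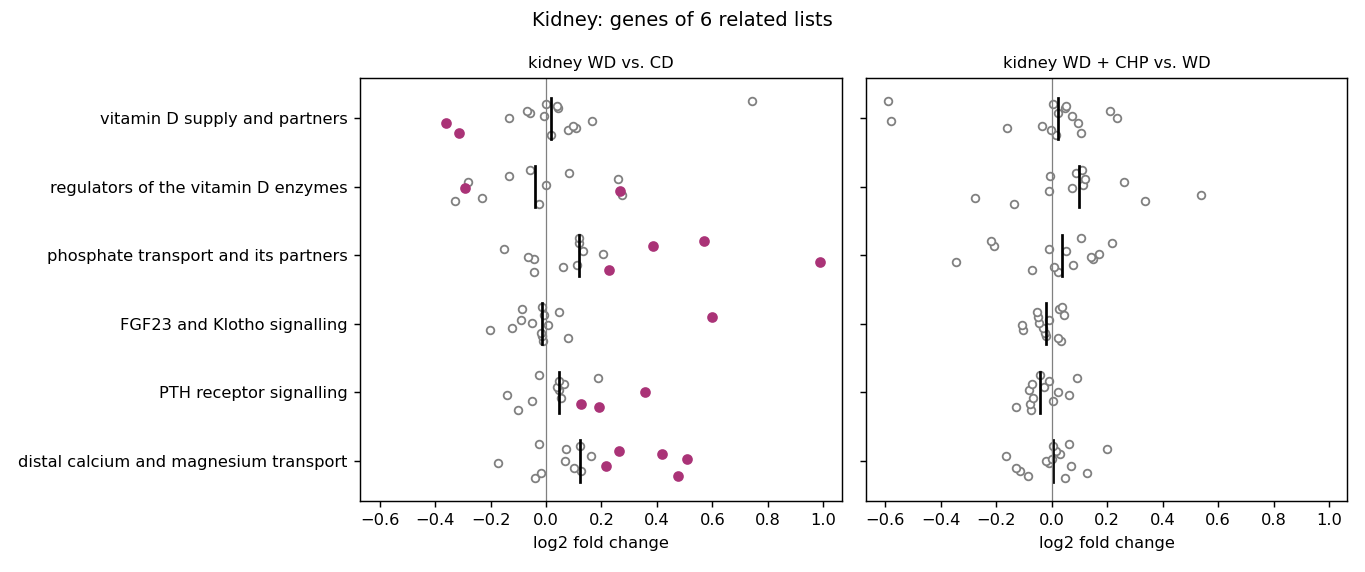
Log2 fold changes of the tested genes of 6 related lists in kidney, for WD vs. CD and WD + CHP vs. WD. Filled points have an edgeR adjusted p under 0.05 and black bars are list medians. There are 17 genes with filled points in WD vs. CD, and 0 in WD + CHP vs. WD.

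Of 15 genes of vitamin D supply and of the receptor's partners, 2 fell and 0 rose in WD vs. CD (median 0.02), beside 9.65% of all tested genes called. Of the 15, 4 had an unadjusted p under 0.05, beside 4263 of 17120 genes. Their log2 fold changes ran from -0.36 to 0.74. *Dhcr7*, which turns the precursor of vitamin D into cholesterol, fell by 0.36 on the log2 scale (SE 0.06, edgeR adjusted p = 0.00091), and *Cubn*, which takes up the vitamin D binding protein from the filtrate with megalin, fell by 0.32 (SE 0.07, adjusted p = 0.00752). Both also fell in WD + CHP vs. CD, by 0.26 and 0.21. *Lrp2*, which encodes megalin, had the smallest p of the list in WD + CHP vs. WD, where its level was 2729 ± 144 CPM against 2317 ± 148 CPM (SD, n = 5, log2 fold change 0.24, SE 0.05, edgeR adjusted p = 0.0722).

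Of 12 regulators of the vitamin D enzymes, 1 rose and 1 fell in WD vs. CD (median -0.04), beside 9.65% of all tested genes called. The gene that rose was *Esrra*, the oestrogen-related receptor alpha of energy metabolism (log2 fold change 0.27, SE 0.06, edgeR adjusted p = 0.00873). In WD + CHP vs. CD again 1 rose and 1 fell, beside 12.1% of all tested genes, and *Esrra* was the one that rose, at 0.26. *Cebpb*, a transcription factor gene, had the smallest p of the list in WD + CHP vs. WD (log2 fold change 0.34, SE 0.13, adjusted p = 0.342).

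Phosphate transport and its partners gave 4 rises and 0 falls among 14 tested genes in WD vs. CD (median 0.12), beside 9.65% of all genes. *Sgk1*, a kinase induced by mineralocorticoids and glucocorticoids, rose by 0.99 (SE 0.16, edgeR adjusted p = 0.00115), from 50.1 ± 9.73 to 99.3 ± 10.4 CPM (SD, n = 5). *Stc2*, a stanniocalcin, rose by 0.57 (SE 0.13, adjusted p = 0.00913), *Slc9a3r2*, a scaffold of the brush border, by 0.39 (SE 0.07, adjusted p = 0.00213), and *Ezr*, which ties such scaffolds to actin, by 0.23 (SE 0.03, adjusted p = 0.000782). In WD + CHP vs. CD 4 were called, beside 12.1% of all tested genes. They were *Sgk1* (0.64), the phosphate carrier gene *Slc20a1* (0.38), the phosphate exporter gene *Xpr1* (0.23) and *Ezr* (0.16). *Slc9a3r2* had the smallest p in WD + CHP vs. WD (-0.21, SE 0.07, adjusted p = 0.229).

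FGF23 and Klotho signalling gave 1 call among 14 tested genes in WD vs. CD (median -0.01), beside 9.65% of all tested genes. *Galnt3*, whose enzyme glycosylates FGF23 in bone and shields it from cleavage, rose by 0.60 (SE 0.07, edgeR adjusted p = 0.000157), from 52.9 ± 3.75 to 80.1 ± 4.58 CPM (SD, n = 5). In WD + CHP vs. CD *Galnt3* rose by 0.55 and *Fgfr2* fell by 0.31. *Fgfr4* had the smallest p in WD + CHP vs. WD (-0.11, SE 0.04, adjusted p = 0.356).

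PTH receptor signalling gave 3 rises among 13 tested genes in WD vs. CD (median 0.05), beside 9.65% of all tested genes called. They were the phospholipase gene *Plcb1* (0.36, SE 0.08, edgeR adjusted p = 0.0143), the arrestin gene *Arrb2* (0.19, SE 0.06, adjusted p = 0.0496) and the G protein gene *Gna11* (0.13, SE 0.04, adjusted p = 0.0477). *Plcb1* was also called in WD + CHP vs. CD (0.38, adjusted p = 0.00902). *Prkar1a* had the smallest p in WD + CHP vs. WD (-0.07, SE 0.03, adjusted p = 0.37).

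Distal calcium and magnesium transport gave 5 rises and 0 falls among 15 tested genes in WD vs. CD (median 0.12), beside 9.65% of all genes. *Pvalb*, the parvalbumin gene of the distal convoluted tubule, rose by 0.51 (SE 0.07, edgeR adjusted p = 0.000643), the calcium pump gene *Atp2b4* by 0.48 (SE 0.06, adjusted p = 0.000226) and the sodium calcium exchanger gene *Slc8a1* by 0.42 (SE 0.08, adjusted p = 0.00328). *Trpm6*, the magnesium channel of that segment, rose by 0.26 (SE 0.08, adjusted p = 0.0456). In WD + CHP vs. CD 6 rose, beside 12.1% of all tested genes called. The 4 largest of these 6 rises were *Pvalb* (0.51), *Slc8a1* (0.45), *Atp2b4* (0.39) and *Cnnm2* (0.29). *Trpm7* had the smallest p in WD + CHP vs. WD (0.20, SE 0.05, adjusted p = 0.147). *Pvalb* and *Trpm6* also stand on the marker list of the distal convoluted tubule given above.

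In gastrocnemius 6 of the 10 genes had few or no counts. *Cyp24a1* and *Slc34a3* had 0 counts in all 15 libraries, which allows up to 3 counts or 0.0548 to 0.0611 CPM per library, counting error only. *Cyp27b1* held 2 to 8 counts per library, *Vdr* 1 to 16, *Slc34a1* 0 to 7 and *Calb1* 0 to 5, and none of the 6 passed the count filter. Differences between groups were therefore not tested for them. Muscle and kidney were normalised separately, so levels of the tissues are set side by side and were not tested.

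The 4 tested genes gave 1 call in WD vs. CD, beside 8.63% of all tested muscle genes, 0 of 4 in WD + CHP vs. WD, beside 0.409%, and 1 in WD + CHP vs. CD, beside 9.4%. For WD + CHP vs. WD 0 of the 4 had an unadjusted p under 0.05, and DESeq2 and limma-voom also called 0. The call in both comparisons with CD was *Kl*.

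*Kl*, the Klotho gene, is expressed far below its kidney level in muscle, with a CD mean of 0.266 ± 0.0688 TPM-like units against 205 ± 13.8 in kidney (SD, n = 5 each). Its muscle libraries held 34, 40, 53, 34 and 57 counts in CD, 11, 14, 20, 23 and 25 counts in WD, and 26, 10, 12, 22 and 13 counts in WD + CHP, or 0.658 to 1.09, 0.21 to 0.479 and 0.191 to 0.507 CPM. All CD libraries were above all libraries of both other groups, and WD and WD + CHP overlapped. *Kl* fell to 0.413 of CD in WD (log2 fold change -1.28, SE 0.27, edgeR adjusted p = 0.00774) and to 0.38 of CD in WD + CHP (-1.40, SE 0.28, adjusted p = 0.00531). Both calls held in all 10 refits lacking 1 library and under each of 10 other settings. WD + CHP vs. WD gave -0.12 (SE 0.30, adjusted p = 0.913). Whether the effect on *Kl* differed between muscle and kidney was not tested.

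**Figure D5:**
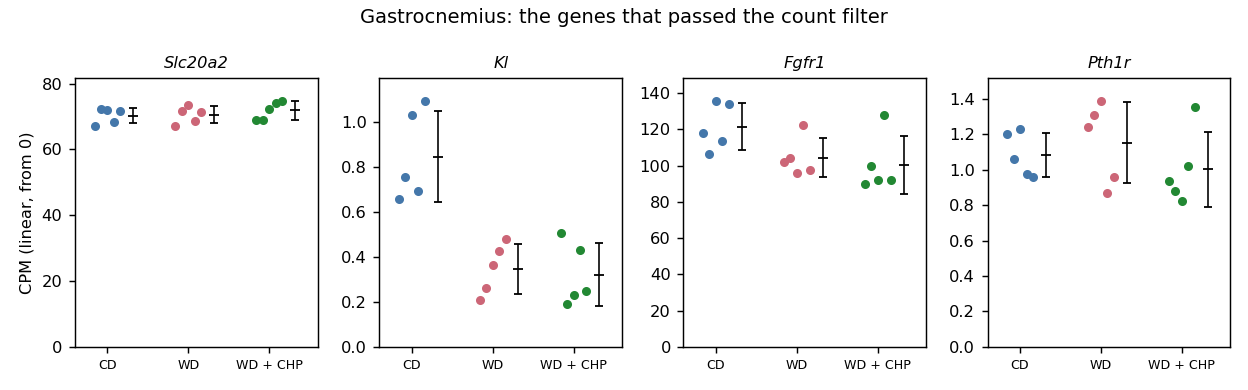
Level of the 4 genes that passed the count filter in the 15 gastrocnemius libraries, in CPM on linear axes that start at 0. Dots are libraries and bars are the mean and SD of 5. *Kl* lies between 0.658 and 1.09 CPM in CD, above every WD and WD + CHP library.

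Other cell types moved in the same muscle libraries. Of 8 adipocyte markers, 4 rose and 1 fell in WD vs. CD, beside 8.63% of all tested muscle genes called. In WD + CHP vs. WD 5 of these markers fell, beside 0.409% of all genes. Their summed level ranged from 121 to 197 CPM in CD, 176 to 226 CPM in WD and 103 to 169 CPM in WD + CHP. None of 10 fast fibre markers and none of 7 slow fibre markers was called by edgeR. In WD vs. CD 6 and 3 of them had an unadjusted p under 0.05, beside 3662 of all 15419 tested muscle genes. There 8 of 10 fast markers were below 0 (median log2 fold change -0.15) and 7 of 7 slow markers above 0 (median 0.55). WD + CHP vs. CD also gave 8 of 10 below 0 (median -0.15) and 7 of 7 above 0 (median 0.32). The sums were 190976 to 228404, 171397 to 200822 and 173101 to 204074 CPM for fast and 572 to 1589, 776 to 2822 and 936 to 1574 CPM for slow fibres in CD, WD and WD + CHP. No marker was at 0, and the part of these cells in the *Kl* result was not tested.

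*Fgfr1* was the most abundant of the 10 in muscle per length, at 35.9 ± 4.38 TPM-like units in CD, with *Slc20a2* at 33.0 ± 1.92 in an overlapping range (SD, n = 5). In CPM *Fgfr1* held 118, 106, 136, 113 and 134 in CD, 102, 104, 96.1, 123 and 97.6 in WD, and 89.9, 99.8, 91.9, 128 and 91.9 in WD + CHP. Groups overlapped, and the log2 fold changes were -0.22 in WD vs. CD (SE 0.10, edgeR adjusted p = 0.193), -0.06 in WD + CHP vs. WD (SE 0.10, adjusted p = 0.86) and -0.28 in WD + CHP vs. CD (SE 0.10, adjusted p = 0.0887). Without WD + CHP replicate 4, which was apart from the other 4 of its group, the last value passed (-0.38, adjusted p = 0.011).

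*Slc20a2* ranged from 67.2 to 72.4 CPM in CD, 67.1 to 73.5 CPM in WD and 69.0 to 74.8 CPM in WD + CHP in muscle, and its log2 fold changes were 0.0044, 0.03 and 0.03 in WD vs. CD, WD + CHP vs. WD and WD + CHP vs. CD, with edgeR adjusted p-values of 0.966, 0.845 and 0.692. *Pth1r* held only 43 to 76 counts per library and gave 0.09 (adjusted p = 0.795), -0.20 (adjusted p = 0.66) and -0.11 (adjusted p = 0.718) in the same order. It shares 95 exon bases with *Myl3* on the other strand, a slow muscle gene with 3212 to 11060 counts in these libraries. The strand setting of the counting is not given in the sources used here, so part of the muscle counts of *Pth1r* could come from *Myl3*.

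Among related genes in gastrocnemius, 72 of the 91 were tested, and 5 rose and 2 fell in WD vs. CD, 9.72% of them beside 8.63% of all tested muscle genes. In vitamin D supply the coactivator gene *Ncoa1* fell (-0.24, edgeR adjusted p = 0.0155), and among the regulators *Cebpa* rose (0.49, adjusted p = 0.029). In phosphate transport *Slc20a1* (0.53, adjusted p = 0.0197) and *Slc9a3r2* (0.48, adjusted p = 0.000484) rose. *Fgfr3* (0.87, adjusted p = 7.87e-05) and the protease gene *Adam10* (0.23, adjusted p = 0.00795) rose in FGF23 and Klotho signalling, and the calcium-sensing receptor gene *Casr* fell (-0.47, adjusted p = 0.0466).

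*Cebpa* was the only one of the 72 called in WD + CHP vs. WD, beside 0.409% of all genes. It fell by 0.68 (SE 0.13, edgeR adjusted p = 0.0304) in the same libraries in which adipocyte markers fell, and their part in that change was not tested. In WD + CHP vs. CD 5 rose and 5 fell, 13.9% beside 9.4% of all genes, among them *Slc20a1* (0.64), *Slc9a3r2* (0.59), *Fgfr3* (0.76), *Gna11* (0.18), *Esrra* (0.34), *Ncoa1* (-0.25), *Sp1* (-0.25), *Casr* (-0.55) and *Trpm7* (-0.28).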

How the data were processed

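Each tissue had 15 RNA-seq libraries, 5 per group. The deposited values are raw counts, not normalised, from polyA-enriched libraries whose reads the authors cleaned with SOAPnuke. The submitters' processing notes name STAR 2.7.3a and builds GRCm38 and mm10, and the counting tool, annotation and strand setting are not given in the sources used here. The extraction text of the labels names liver and another kit than the paper, so tissues were taken from the tissue labels and checked by markers. The tables held 0 columns without a sample.

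The analysis used edgeR 4.0.16 in R 4.3.3. Each tissue was filtered with filterByExpr (minimum count 10), scaled by TMM and fitted with the 3 groups in 1 quasi-likelihood model. Tests were two-sided, and p-values were adjusted by Benjamini-Hochberg over every gene kept. CPM used TMM-scaled library sizes, and log2 CPM a prior count of 2. TPM-like values divide counts by the exon length of GENCODE M21. The models were tested on simulated counts. DESeq2 1.42.0, limma-voom 3.58.1, other scalings and filters, a length and GC correction, a replicate block and leaving out each library were alternatives. Figures used matplotlib 3.10.9 in Python 3.11.15.

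The genes, the related lists, the marker lists and the tests were chosen with earlier results of these data known. Named genes are the 10 genes and, of each related list, up to 4 called genes per kidney comparison and up to 2 per muscle comparison by size of change, or, in kidney where none was called, the gene with the smallest p. The 3 genes most like each called gene were also named. A gene of the related lists that the rule would name is not reported here and stands only in the counts. Depth limits the precision of genes with few counts, and intervals and floors cover counting error only.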

Additional observations from a re-analysis of the deposited data

Results flagged for a closer look

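In 42 groups of 5 libraries, 1 library stood apart from the others of its group by Dixon's test at the 95% level. *Fgfr1* in gastrocnemius was at 128 CPM in WD + CHP replicate 4, and the other 4 libraries of that group ranged from 89.9 to 99.8 CPM. The gap was 0.74 of the range, above the critical value of 0.71. Chance sets apart about 1 in 20 such groups.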

How the results depend on the processing

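Each of the 42 log2 fold changes of the 10 genes was recomputed under 10 other settings and 10 refits lacking 1 library. Of 420 values under other settings, 400 kept their direction and their side of the threshold, 3 lost and 5 gained a call, and 12 turned direction. Of 420 values from the refits, 370 kept both, 21 lost and 8 gained a call, and 21 turned. The calls gained or lost are given beside each gene. All values that turned belonged to uncalled changes, of at most 0.17 in size, and the cause was not tested.

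In kidney WD + CHP vs. WD, 18 genes were called in all, against 194 with DESeq2, 37 with no filter, 6 with the length and GC correction and 0 with only the 2 groups compared (1991 at an unadjusted p under 0.05). In the same comparison *Calb1* turned to -0.0269 with total count scaling and, with the length and GC correction, to -0.0364, while *Slc34a1*, *Fgfr1* and *Pth1r* turned to 0.0448, 0.0232 and 0.0383. In gastrocnemius WD + CHP vs. WD, 63 genes were called, against 249 with DESeq2 and 40 with no filter, and *Slc20a2* turned to -0.0172 with total count scaling. In gastrocnemius WD vs. CD *Slc20a2* turned to -0.0038 with the length and GC correction.

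Same-numbered libraries were not paired, since correlations of their deviations ran from -0.126 to 0.146. With a replicate block 70 genes were called in kidney WD + CHP vs. WD, and the block alone changed no call among the 10 genes. With the block and the length and GC correction, *Slc34a1*, *Fgfr1*, *Pth1r* and *Calb1* gave 0.0429, 0.0227, 0.039 and -0.0366 in that comparison, and *Slc20a2* gave -0.0041 in gastrocnemius WD vs. CD, while *Fgfr1* in kidney WD + CHP vs. CD lost its call (-0.15, edgeR adjusted p = 0.0614).

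Leaving out 1 library at a time, kidney WD + CHP vs. CD called 2 to 6 of the 10 genes and 1202 to 2150 of all genes, kidney WD + CHP vs. WD 0 to 1 and 0 to 97, gastrocnemius WD + CHP vs. CD 1 to 2 and 873 to 1617, and gastrocnemius WD + CHP vs. WD 12 to 92 genes. The log2 fold changes in kidney WD + CHP vs. WD ranged from -0.373 to 0.0518 for *Cyp24a1*, -0.0404 to 0.0422 for *Slc34a1*, -0.042 to 0.0253 for *Fgfr1* and -0.0361 to 0.0465 for *Calb1*. In gastrocnemius they ranged from -0.0117 to 0.0215 for *Slc20a2* in WD vs. CD, and from -0.342 to 0.021 for *Kl* and -0.162 to 0.0045 for *Fgfr1* in WD + CHP vs. WD. Low counts limit the precision of *Kl* and *Pth1r* in muscle, while for *Cyp27b1* in kidney the SDs within groups, given beside its values, are wider than counting error.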
